A study of Homo sapiens with 12 samples.

Results

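The 37 genes described here encode proteins of the lysosome and of autophagy, together with 2 transcription factors and 5 nutrient-sensing proteins that act on the lysosome. They were taken as a fixed list of names, matched by Ensembl identifier, and all 37 were found among the 58051 genes of the count tables. The RNA came from HCT116 cells, a line established from a human colon carcinoma, in 6 groups of 2 libraries (replicates 1 and 2). All cells received an siRNA, a small double-stranded RNA that brings about decay of a matching transcript, by means of Oligofectamine. From 24 h after the siRNA was added they were kept without serum for 48 h. The siRNA was a control (siControl) or was directed against PFDN2 (siPFDN2) or PFDN5 (siPFDN5), both subunits of prefoldin, a complex that hands newly made actin and tubulin to a chaperonin. For each siRNA, cells were taken at the end of starvation (before serum) or 90 min after serum was given back (after serum). One siRNA sequence was used per target, there were no unstarved cells, and the labels do not say whether the 2 libraries of a group came from separate cultures, so that p-values measure only the spread between these libraries.

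The lysosome breaks down proteins, lipids and glycans with acid hydrolases, which work because the V-ATPase, a proton pump, acidifies its lumen. Autophagy delivers cytoplasm to it in vesicles called autophagosomes, and serum starvation and amino acid loss are textbook inducers of that process. When nutrients are plentiful, the kinase mTORC1 is recruited to the lysosomal surface by the Rag GTPases and holds TFEB and TFE3, transcription factors of lysosomal and autophagy genes, in the cytoplasm by phosphorylation, a control on the protein that messenger RNA levels do not show.

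TFEB and TFE3 bind the E-box CACGTG, above all within the longer CLEAR element, in which GT stands before CACGTG and AC after it. The stretches below show how these letters lie in the promoters of members from 3 roles: LAMP1 in the lysosomal membrane, MCOLN1 as a lysosomal calcium channel, and the hydrolases CTSA, CTSD and NEU1. RefSeq promoters (GRCh38.p14, from 250 bases before to 50 bases after the gene's start) were at hand for 28 of the 37 members. All sequences are written 5′ to 3′ on the strand of the gene, with CACGTG in capitals. The LAMP1 stretch, chr13:113296989-113297238 on the plus strand, is the 250 bases before its start, and the others are 36-base windows centred on the motif. The windows lie at chr19:7522595-7522630 (MCOLN1, plus strand), chr20:45891295-45891330 (CTSA, plus strand), chr11:1763954-1763989 (CTSD, minus strand) and chr6:31862927-31862962 (NEU1, minus strand).
LAMP1: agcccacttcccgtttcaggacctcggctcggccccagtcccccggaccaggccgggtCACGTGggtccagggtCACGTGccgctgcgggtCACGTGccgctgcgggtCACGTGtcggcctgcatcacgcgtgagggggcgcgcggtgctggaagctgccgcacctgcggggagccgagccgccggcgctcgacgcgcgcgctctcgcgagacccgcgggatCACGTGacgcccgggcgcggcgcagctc
MCOLN1: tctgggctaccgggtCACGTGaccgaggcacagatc
CTSA: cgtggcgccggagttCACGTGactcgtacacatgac
CTSD: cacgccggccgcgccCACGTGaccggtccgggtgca
NEU1: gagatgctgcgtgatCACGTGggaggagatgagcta

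Searched on either strand, CACGTG was present in 9 of the 28 member promoters (32.1%) and in 2030 of 27305 promoters in the table (7.43%). The longer TCACGTG, which contains it, was in the same number of member promoters and in 3.82% of all promoters, and the full CLEAR element was in MCOLN1 alone among the members and in 0.381% of all. LAMP1 held 6 copies of CACGTG in its 300 bases, 5 of them whole in the stretch shown, and the other 8 were MCOLN1, CTSA and FNIP1 with 2 each and CTSD, NEU1, ATG14, ATP6V0D1 and RRAGC with 1. These are matches of letters and say nothing of binding in these cells. Promoters of LAMP2, CTSB, HEXA, NAGLU, ATP6V1H, ATP6V1A, ATP6V0E1, UVRAG and RRAGD were not looked at here.

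Libraries held 59784425 to 136504590 counts over gene bodies. Under siPFDN2 the target PFDN2 was at 7.55 and 8.49 CPM (a gene's count relative to its library's scaled total) before serum, where siControl had 11.5 and 11.2, and at 8.73 and 9.47 after serum, where siControl had 19.5 and 16.3. PFDN5 had 41.0 and 44.2 under siPFDN5 before serum and 76.8 and 68.9 under siControl, but after serum it had 67.5 and 68.6 where siControl had 67.9 and 74.0. The second pair does not show the knockdown, so it is called here the libraries labelled siPFDN5 after serum, and any direction drawn from it carries that limit. Replicate 2 of siPFDN2 before serum stood apart. The log2 ratio between the 2 replicates had an SD over genes of 0.681 in that group and 0.116 to 0.301 in the other 5. This was taken over 12113 genes with a mean log2 CPM of at least 3. The epithelial markers EPCAM, KRT8, KRT18, KRT19 and CDH1 were at 64.7 CPM or more in every library, CDX2 and VIL1 were at 5.57 to 16.7, CDX1 had at most 2 counts, and the hepatocyte markers ALB and APOA1 had at most 9. The 5 leukocyte markers summed to 2.66 to 4.43 CPM, nearly all of it CD68, itself a lysosomal protein, and the 3 endothelial markers to 1.29 to 2.37. The 5 fibroblast markers, nearly all of it COL1A1 (COL1A2 had at most 3 counts and DCN 6), summed to 4.19 to 5.53 CPM before serum, apart from 16.1 in siPFDN2 replicate 2, and to 7.6 to 13.8 after it. Their part in the serum responses was not tested.

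All 37 genes were detected in every library and all passed the filter on low counts. Compared per kilobase of exon (exon CPM divided by exon length, median over 12 libraries), the most abundant were ATP6V0E1, a membrane subunit of the V-ATPase, at 33.8 CPM per kilobase, and SQSTM1, the autophagy receptor p62, at 33.0. CTSZ and LAMP1 followed at 28.1 and 26.9, ahead of ATP6V1A at 26.4 and CTSB at 26.4. Among genes of autophagosome formation the highest was BECN1, a subunit of the autophagy lipid kinase complex, at 8.51. At the other end stood FLCN at 1.46, FNIP2 at 1.32, the calcium channel MCOLN1 at 1.25 and TFEB at 0.437, the lowest of the 37. Hydrolases and pump subunits thus filled most of the top of the order, while the kinase ULK1 (1.61) and the transcription factor TFEB lay near its foot, and TFE3 (3.34) lay above TFEB. The neighbours ATP6V0E1 and SQSTM1, and ATP6V1A and CTSB, differed by less than their spread over libraries.

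Averaged over the 3 siRNAs, 4 of the 37 genes rose 90 min after serum and 1 fell. The genes that rose were GLA, a hydrolase that removes galactose from glycolipids, WIPI1, which binds the lipid PI3P on forming autophagosomes, and MAP1LC3B and GABARAPL1, ubiquitin-like proteins attached to the autophagosome membrane. TFEB, the transcription factor, fell. In bulk RNA a change in the share of cells that express a gene cannot be told apart from a change in its RNA per cell. By the rule used throughout, an adjusted p under 0.05 (quasi-likelihood test of edgeR, Benjamini-Hochberg, over all 27915 genes tested), 4163 genes or 14.9% were called in this comparison, 7.6% higher and 7.31% lower. The share of members called, 5 of 37, was near that background. The median log2 fold change of the members was 0.01, beside -0.03 over all genes, and 19 of 37 were positive.

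GLA (ENSG00000102393, chrX:101397803-101407925, GRCh38) had, before serum, 20.99 and 18.99 CPM in siControl, 19.6 and 13.8 in siPFDN2 and 14.2 and 13.7 in siPFDN5. After serum it was at 23.4 and 27.2, at 28.7 and 27.7, and at 33.8 and 30.1 in the libraries labelled siPFDN5. All 6 libraries after serum were above all 6 before it, and the 2 siPFDN5 groups held the extremes of both sets, apart from the low siPFDN2 replicate 2. On the log2 scale GLA changed by 0.76 ± 0.10 (SE; adjusted p = 6.65e-04, edgeR).

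WIPI1 (ENSG00000070540, chr17:68420948-68457513) lay between 21.0 and 25.5 CPM in the 6 libraries before serum. After it, values were 36.7 and 32.5 in siControl, 32.8 and 31.1 in siPFDN2 and 30.7 and 30.0 in siPFDN5. The 2 sets did not overlap and the log2 fold change was 0.44 ± 0.08 (adjusted p = 0.00299, edgeR). MAP1LC3B (ENSG00000140941, chr16:87383995-87404779), best known as LC3B, was at 33.3 and 32.3 CPM in siControl, 29.5 and 25.5 in siPFDN2 and 36.7 and 42.1 in siPFDN5 before serum. It was at 44.7 and 50.8, 38.5 and 38.0, and 46.1 and 56.9 after serum. Within each siRNA both libraries after serum were above both before, although across siRNAs the sets overlapped, as siPFDN5 replicate 2 before serum was above both siPFDN2 libraries after it. Its log2 fold change was 0.47 ± 0.09 (adjusted p = 0.00638, edgeR).

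GABARAPL1 (ENSG00000139112, chr12:10212458-10223130) made the smallest of these steps, from 30.2 and 28.3 CPM to 31.6 and 33.0 in siControl, from 26.5 and 22.8 to 31.7 and 31.2 in siPFDN2, and from 24.5 and 23.4 to 30.1 and 30.7 in siPFDN5. The sets touched, as 1 siControl library before serum was above 1 siPFDN5 library after it. The log2 fold change was 0.28 ± 0.08 (adjusted p = 0.0364, edgeR), and with libraries scaled by their totals alone it was 0.14 with an adjusted p of 0.274. This call was lost in 12 of 21 alternatives, 9 of them leaving out 1 library (any but siControl replicate 1 after serum and the siPFDN2 pair before it), and adjusted p ran from 1.01e-04 to 0.274. TFEB (ENSG00000112561, chr6:41683978-41736259) was at 2.83 and 3.16 CPM in siControl, 3.53 and 5.36 in siPFDN2 and 3.25 and 3.51 in siPFDN5 before serum. After serum it was at 2.55 and 2.13, 2.10 and 2.05, and 1.95 and 1.86. Every library after serum was below every library before it, and the log2 fold change was -0.76 ± 0.12 (adjusted p = 0.00237, edgeR).

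**Figure D1:**
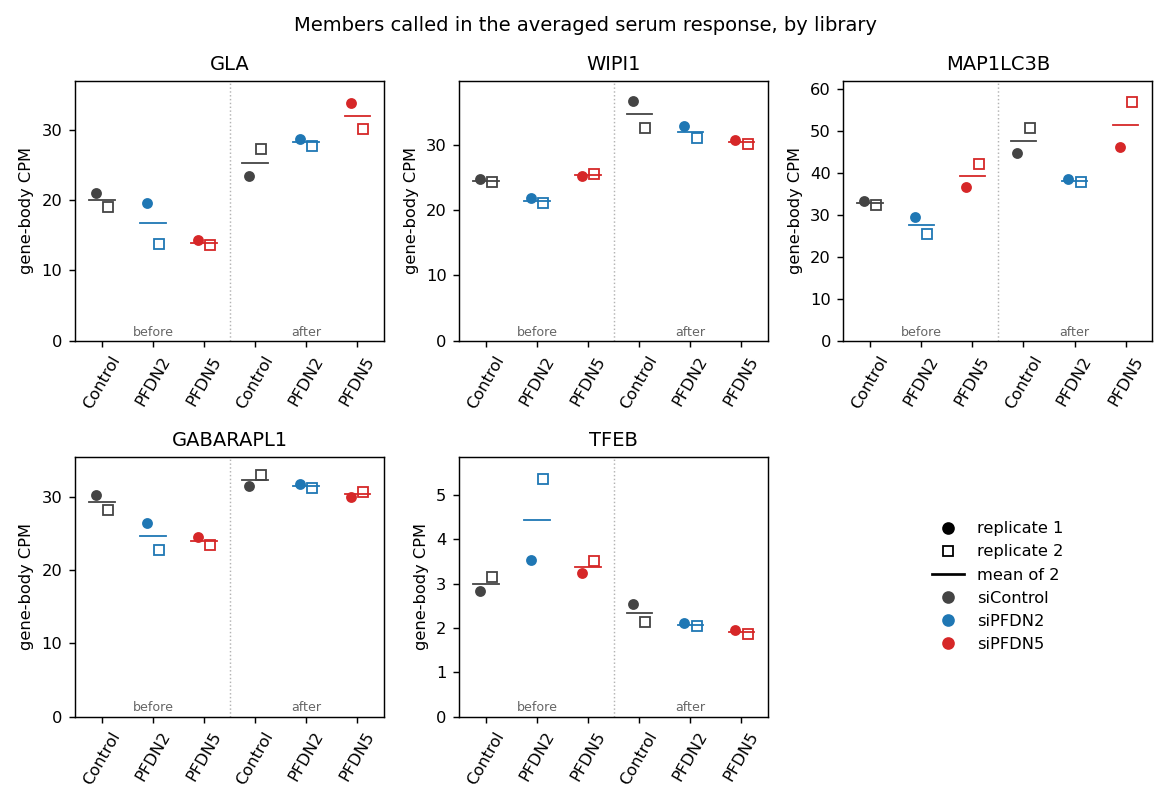
Gene-body CPM (y axis, from 0) of the 5 genes called in the averaged serum response, by siRNA and time (x axis), with filled circles for replicate 1, open squares for replicate 2 and bars for the mean of 2. GLA, WIPI1 and TFEB separate all 6 libraries before serum from all 6 after it, while the sets of MAP1LC3B and GABARAPL1 overlap across siRNAs.

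By counts over exons the members called were the same 5, beside 11% of all genes. By role, the members that passed were spread thinly. Among the 4 receptor and ATG8-type genes, MAP1LC3B and GABARAPL1 rose, and the group's median log2 fold change was 0.24. SQSTM1, whose protein carries ubiquitin-tagged cargo into autophagosomes, was at 217.2, 192.5, 188.6, 294.8, 166.1 and 171.7 CPM before serum, in the order siControl, siPFDN2, siPFDN5. After it, values were 227.9, 232.5, 205, 211.9, 233.6 and 251.9. The sets overlapped through the high siPFDN2 replicate 2, and the log2 fold change of 0.16 ± 0.11 did not pass (adjusted p = 0.323, edgeR). GABARAPL2, another ATG8-type protein, had 0.21.

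GLA was the only one of the 9 acid hydrolases called, and the median of the group was 0.00. The proteases CTSB and CTSZ and the hexosaminidase subunit HEXA were each within 0.01 of no change on the log2 scale. None of the 3 membrane genes was called. LAMP1, the main glycoprotein of the lysosomal membrane, was between 113.1 and 143.3 CPM before serum and between 118.5 and 152.9 after it. The 2 sets overlapped almost fully, and its log2 fold change was 0.00 ± 0.08 (adjusted p = 0.994, edgeR).

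None of the 5 V-ATPase genes was called (median log2 fold change 0.20, from -0.07 for ATP6AP1 to 0.21 for ATP6V0E1). WIPI1 was the only one called of 9 genes of autophagosome initiation and growth, whose median was -0.13. In that group ULK1, the kinase that starts autophagy, had the lowest log2 fold change of the 9, -0.66 ± 0.21, with an adjusted p of 0.0602 (edgeR). Before serum it was at 33.8 CPM in siPFDN2 replicate 2, beside 11.2 in replicate 1. With 1 library left out its log2 fold change ran from -0.85 to -0.33. Of the 5 genes of the folliculin and Rag arm none was called. FLCN, the folliculin GTPase-activating protein for RRAGC and RRAGD, had 14.6 and 14.4 CPM in siControl, 14.8 and 20.6 in siPFDN2 and 12.1 and 12.4 in siPFDN5 before serum. It was at 9.96 and 11.2, 12.9 and 11.2, and 13.4 and 13.2 after serum. FLCN values were thus lower after serum in siControl and siPFDN2 but not in siPFDN5, and the log2 fold change was -0.30 ± 0.10 (adjusted p = 0.0702, edgeR). TFE3, the close relative of TFEB, was at 11.4 to 17.8 CPM before and 11.1 to 13.5 after, overlapping sets with a log2 fold change of -0.11 ± 0.11 (adjusted p = 0.518, edgeR).

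None of the 5 genes called had CACGTG in the 300 bases searched. Of the 9 genes that had it, none was called in the averaged serum response on gene-body counts, and their log2 fold changes lay between -0.26 for CTSD and 0.21 for NEU1. With the trend in GC content removed, FNIP1, NEU1, ATG14 and ATP6V0D1 were called (4 of the 9, beside 29.2% of all genes). In intronic counts, where NEU1 was not tested, CTSD and CTSA were called, beside 29.3% of all genes tested.

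The number of members called depended strongly on siPFDN2 before serum. It was 22 of 37 without replicate 1 of that group (47.3% of all genes) and 17 without replicate 2 (27.5%), and 13 with the GC trend of each library removed (29.2%). Scaling by library totals alone lowered the median of all genes to -0.17 and gave 8 calls, 3 higher and 5 lower. Upper-quartile scaling gave 3 and 3. No share of all genes is given for these scalings, so their counts do not set the members apart. GLA, WIPI1, MAP1LC3B and TFEB kept direction and call in all 21 alternatives run for them.

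Each siRNA was also tested on its own. In siControl none of the 37 genes was called by edgeR, beside 2.87% of all genes, and 2 were called by DESeq2, beside 4.31%. An unadjusted p under 0.05 (edgeR) was found for 4 members, for which no share over all genes is given. Both libraries after serum were above both before in 11 members, beside 23.3% of all genes, and below in 4, beside 22.4%. The highest log2 fold change there was that of ATP6V0D1, a V-ATPase subunit at the membrane, with 0.65 ± 0.23 (adjusted p = 0.217, edgeR). WIPI1 had 0.50 ± 0.13 (adjusted p = 0.0798) and MAP1LC3B 0.54 ± 0.16 (adjusted p = 0.116). GLA and TFEB made smaller steps in siControl than under the other siRNAs. The fold of mean CPM of GLA was 1.27 in siControl, 1.69 in siPFDN2 and 2.29 in siPFDN5, and that of TFEB was 0.782, 0.467 and 0.564. Without either replicate of siPFDN2 before serum the count was 5 (GLA, ATP6V0D1, MAP1LC3B, FLCN and WIPI1), 9.79% and 9.95% of all genes being called.

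In siPFDN2, GLA and WIPI1 rose and TFEB fell, 3 of 37 beside 3.26% of all genes (2.06% higher and 1.2% lower). TFEB fell by 1.10 ± 0.22 on the log2 scale (adjusted p = 0.0209, edgeR), GLA had 0.76 ± 0.18 (adjusted p = 0.0464) and WIPI1 0.58 ± 0.13 (adjusted p = 0.0395). The fold of mean CPM was 0.467 for TFEB, 1.69 for GLA and 1.49 for WIPI1. Leaving out 1 library left 1 group with a lone library. Over these 12 fits the log2 fold change ran from -1.36 to -0.768 for TFEB, 0.5275 to 1.04 for GLA and 0.549 to 0.62 for WIPI1. Over all 22 alternatives the call of TFEB was lost in 3, and those of GLA and WIPI1 in 15 each.

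Under siPFDN5, GLA, the sialidase NEU1 and ATP6V0E1 rose, TFEB and UVRAG fell, and the other 32 were not called (5 of 37 beside 12.2% of all genes, 5.72% higher and 6.48% lower). The median over members was 0.19, beside -0.03 over all genes, with 28 of 37 above 0, or 22 of 37 with scaling by library totals alone, under which the median of all genes was -0.18. GLA more than doubled, with a fold of mean CPM of 2.29 and a log2 fold change of 1.19 ± 0.18 (adjusted p = 0.00413, edgeR).

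NEU1 (ENSG00000204386, chr6:31857659-31862906) went from 22.2 and 22.2 CPM to 33.6 and 32.1, whereas it stayed between 18.3 and 25.3 in all 8 libraries of the other siRNAs. Its log2 fold change was 0.57 ± 0.15 (adjusted p = 0.0334, edgeR). ATP6V0E1 (ENSG00000113732, chr5:172983757-173035445) went from 40.3 and 39.6 CPM to 56.3 and 59.1, and the other 8 libraries lay between 37.1 and 49.3 (0.53 ± 0.15, adjusted p = 0.0444). TFEB fell by 0.83 ± 0.22 (adjusted p = 0.036). In all of these the 2 libraries of siPFDN5 at each time were close to each other and did not overlap with the other time.

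UVRAG (ENSG00000198382, chr11:75815167-76143195), a partner of BECN1 in autophagosome and endosome traffic, was at 27.8 and 23.9 CPM under siPFDN5 before serum and at 15.6 and 14.9 after it. One siControl library after serum, replicate 1, was as high, at 27.0 CPM, and replicate 2 was at 16.6. The log2 fold change of UVRAG under siPFDN5 was -0.76 ± 0.21 (adjusted p = 0.0429, edgeR) over the gene body but 0.04 over exons (adjusted p = 0.897). The share of its counts that fell in introns was 63.0% and 54.9% before serum and 19.2% and 24.9% after. In the whole library the intronic share under siPFDN5 was 22.8% and 25.9% before serum, and 17.2% and 14.8% in the libraries labelled siPFDN5 after it, and its part in this result was not tested. Over exons GLA was the 1 member called, beside 4.22% of all genes. On gene bodies no member's call remained without either replicate of siPFDN5 before serum. The number of calls also moved when other single libraries were left out, as did the share of all genes called.

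**Figure D2:**
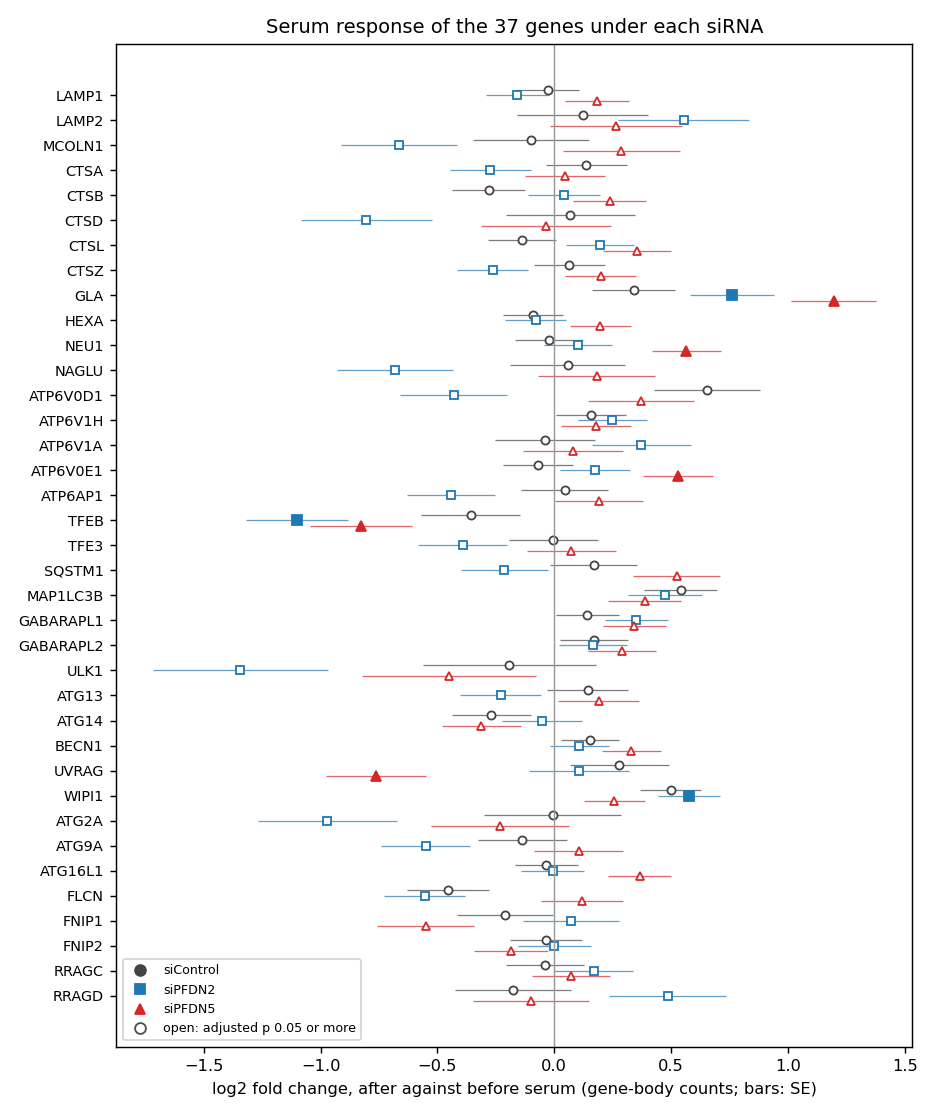
Log2 fold change of gene-body counts after against before serum (x axis) of the 37 genes (y axis, by role) in siControl, siPFDN2 and siPFDN5, with bars for 1 SE and filled symbols for an adjusted p under 0.05. No siControl symbol is filled, GLA and TFEB are filled for siPFDN2 and siPFDN5, and the siPFDN5 symbols lie above 0 for 28 of 37 genes.

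Between knockdown and control at the same time, none of the 37 genes was called by edgeR in any of 4 comparisons. For siPFDN2 before serum, 8 members had an unadjusted p under 0.05 (0% of all genes called; DESeq2 called 0 members), and after serum 1 member had (0% of all genes; DESeq2 0). For siPFDN5 before serum, 5 members had an unadjusted p under 0.05 (0.00716% of all genes called; DESeq2 0). For the libraries labelled siPFDN5 after serum, 7 had (0.00358% of all genes called; DESeq2 2 members, beside 6.34% of all genes). The edgeR shares of all genes called are at an adjusted p under 0.05, so they are no background for counts at an unadjusted p. The median log2 difference from siControl over the members was 0.14 and -0.03 for siPFDN2 before and after serum, and 0.03 and 0.17 for siPFDN5.

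NEU1 came closest to a call, in the libraries labelled siPFDN5 after serum, at 33.6 and 32.1 CPM against 18.3 and 22.7 in siControl, with a log2 difference of 0.68 ± 0.15 (adjusted p = 0.0725, edgeR). Both libraries so labelled were above both siControl libraries after serum for 18 of the 37 members, beside 30.6% of all genes, and below for 6, beside 32.7%. With the GC trend removed, HEXA, NEU1 and ATG16L1 were called in that comparison (13.4% of all genes). The count there was 11, all higher, without either replicate of siPFDN2 before serum (23.6% and 23.9% of all genes), and 2 without siControl replicate 2 after serum. Before serum, the count for siPFDN5 was 4 without either replicate of siPFDN2 (6.96% of all genes without replicate 2).

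The serum response did not differ between either PFDN siRNA and siControl past the threshold for any member on gene-body counts. Against siControl, 5 members had an unadjusted p under 0.05 (edgeR) for siPFDN2, as did 1841 of all 27915 genes, and 7 for siPFDN5. At an adjusted p under 0.05, edgeR called 0% of all genes for either siRNA, which is no background for the unadjusted counts. DESeq2 called 0 members for siPFDN2 and, for siPFDN5, 2 members beside 6.07% of all genes. GLA had a difference of 0.85 ± 0.25 for siPFDN5 (adjusted p = 0.106, edgeR) and UVRAG one of -1.04 ± 0.30 (adjusted p = 0.104). NEU1 and ATP6V0E1, which passed under siPFDN5 only, had differences of 0.59 ± 0.21 (adjusted p = 0.141) and 0.60 ± 0.21 (adjusted p = 0.145) from siControl, so their responses were not shown to differ between siRNAs. The count for siPFDN5 was 9 without either replicate of siPFDN2 before serum (21.5% of all genes without replicate 1 and 21.8% without replicate 2) and 3 without siControl replicate 2 after serum (10.9%). That for siPFDN2 was 24 without siPFDN2 replicate 1 before serum (37.7% of all genes) and 0 without its replicate 2 (0%).

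The 2 libraries of siPFDN2 before serum differed in the members according to base composition. The GC content of the members' longest transcripts ran from 37.7% to 64.4%. All 13 members with at least 55% GC were higher in replicate 2 (median log2 ratio 0.64), and all 9 with under 45% were lower (median -0.40). ULK1 was at 11.2 CPM in replicate 1 and 33.8 in replicate 2, ATG2A, a lipid transfer protein of the growing autophagosome, at 11.9 and 26.9, and the protease CTSD at 51.1 and 110.8. In the opposite direction LAMP2, a lysosomal membrane protein needed for fusion with autophagosomes, was at 65.9 and 29.02. Across the 37 genes, which share the same pair of libraries, the ratio and GC content had a Pearson r of 0.937 and a Spearman rho of 0.927. The same r was -0.572 to 0.572 in the other 5 groups.

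**Figure D3:**
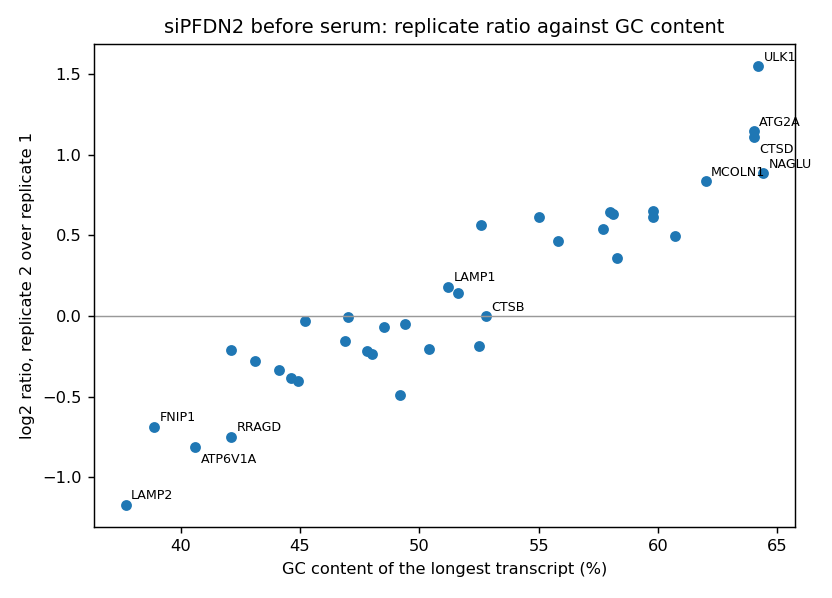
Log2 ratio of gene-body CPM between replicate 2 and replicate 1 of siPFDN2 before serum (y axis) against the GC content of the longest transcript in percent (x axis), 1 point per member, 37 in all. The points climb from LAMP2 (65.9 against 29.02 CPM) to ULK1 (11.2 against 33.8 CPM).

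In siPFDN2 before serum 16 members differed by more than 0.5 (log2) between replicates, while at most 2 did in any other group. Compared with siControl before serum, 27 members would be called without replicate 1 of siPFDN2 (41.8% of all genes), and 0 without replicate 2 (0.0241%).

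Intronic counts were obtained as gene-body counts minus exon counts. Reads in introns come largely from RNA that is not yet spliced. On this measure the members fell more often than they rose after serum, averaged over siRNAs: 13 of the 36 genes tested were called, 4 higher and 9 lower, where 29.3% of all 19731 genes were called (14.2% higher and 15.1% lower). NEU1 had too few intronic counts to be tested. The median over members was -0.21, beside -0.01 over all genes, and 10 of 36 were positive. With scaling by library totals alone the median of all genes was -0.37, and 23 members were called, 1 higher and 22 lower, where 40.2% of all genes were called (5.09% higher and 35.1% lower).

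Genes of autophagosome formation made up 6 of the 13. The intronic level of ULK1 (ENSG00000177169, chr12:131894651-131923167) was 10.0 and 6.59 CPM of intronic counts in siControl, 6.52 and 13.6 in siPFDN2 and 5.92 and 7.11 in siPFDN5 before serum. After serum it was 3.71 and 3.83, 4.22 and 4.91, and 4.17 and 3.93. All 6 libraries after serum were below all 6 before it, and the log2 fold change was -0.99 ± 0.19 (adjusted p = 8.59e-04, edgeR). Over exons ULK1 had -0.64 with an adjusted p of 0.0946.

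ATG9A (ENSG00000198925, chr2:219209772-219229717), which supplies membrane vesicles to the autophagosome, was at 6.28 to 12.1 intronic CPM before serum and 3.12 to 6.05 after it, without overlap (-0.86 ± 0.19, adjusted p = 0.00244, edgeR). ATG2A (-0.88 ± 0.21, adjusted p = 0.00545) and ATG13, a partner of ULK1 (-0.59 ± 0.15, adjusted p = 0.00606), also fell. WIPI1 rose from 32.9 to 41.5 intronic CPM before serum to 58.5 to 71.2 after it, without overlap (0.73 ± 0.12, adjusted p = 2.86e-04). ATG16L1 rose as well (0.61 ± 0.16, adjusted p = 0.00806), but its introns hold the small RNA genes SCARNA5 and SCARNA6, whose reads cannot be told apart from its own, and over exons it had -0.09.

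TFEB fell in introns as over exons. Its intronic level was 3.31 and 4.25 CPM in siControl, 3.55 and 5.40 in siPFDN2 and 5.13 and 5.31 in siPFDN5 before serum, and 3.42 and 2.13, 2.20 and 2.25, and 2.03 and 1.40 after it. The sets touched only through siControl replicate 1 after serum, which was above siControl replicate 1 before it, and the log2 fold change was -1.03 ± 0.19 (adjusted p = 7.22e-04, edgeR). RRAGD (ENSG00000025039, chr6:89364636-89412270), a Rag GTPase that overlaps no other annotated gene, was at 2.497 to 4.91 intronic CPM before serum and 1.40 to 2.67 after it. The sets touched, and RRAGD fell by 0.79 ± 0.18 (adjusted p = 0.00414, edgeR), while over exons it had 0.05 with an adjusted p of 0.839. Intronic counts per library were few, at 16 to 79 for RRAGD and 16 to 126 for TFEB.

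GLA introns rose by more than its exons did. Intronic GLA was at 5.08 and 5.44 CPM in siControl, 6.41 and 5.28 in siPFDN2 and 4.84 and 2.80 in siPFDN5 before serum, and at 6.88 and 9.20, 12.3 and 11.9, and 14.5 and 15.3 after it. The sets did not overlap, and the log2 fold change was 1.21 ± 0.15 (adjusted p = 1.67e-05, edgeR) beside 0.71 over exons. The proteases CTSA (-1.26 ± 0.23, adjusted p = 6.03e-04) and CTSD (-1.14 ± 0.23, adjusted p = 0.00167) fell, and CTSL rose (0.63 ± 0.22, adjusted p = 0.038). CTSA had only 8 to 99 intronic counts per library, between 0.159% and 1.49% of its gene-body counts, and it shares exon sequence with NEURL2 and PLTP.

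**Figure D4:**
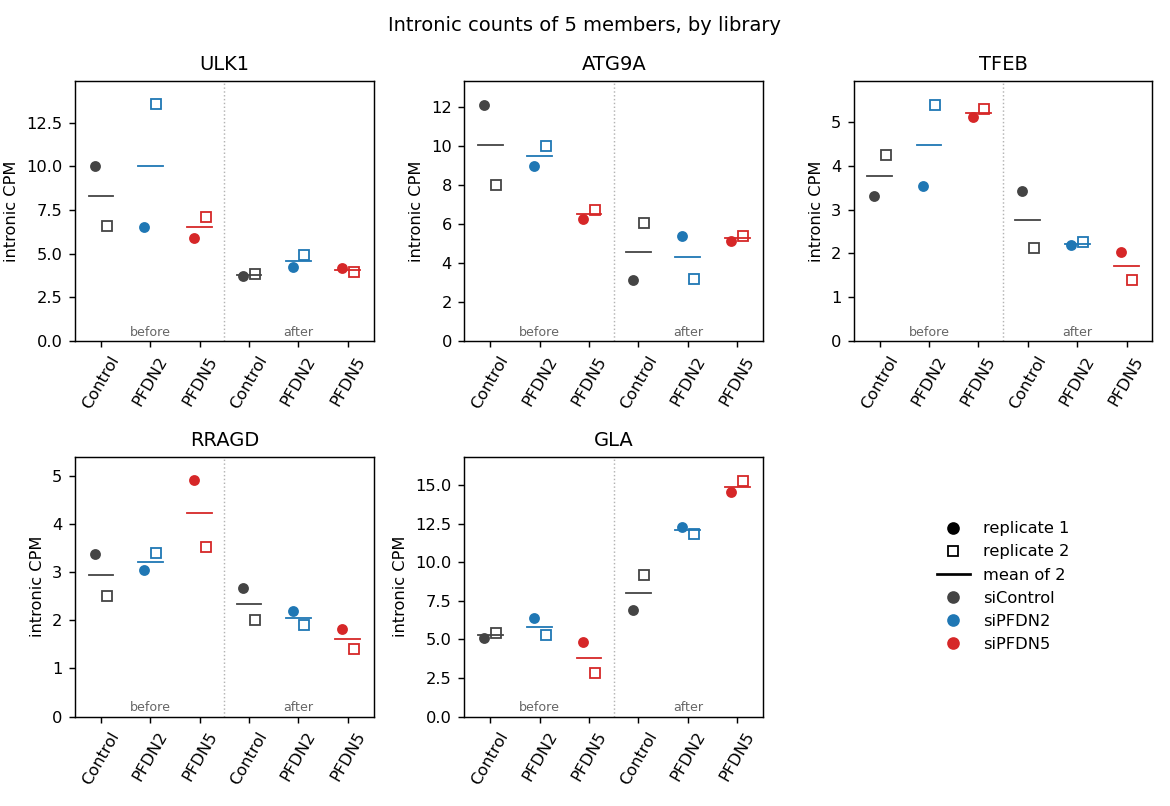
Intronic CPM (y axis, from 0) of ULK1, ATG9A, TFEB, RRAGD and GLA by siRNA and time (x axis), with filled circles for replicate 1, open squares for replicate 2 and bars for the mean of 2. ULK1 and ATG9A are lower in every library after serum than in any before it, GLA is higher, and in TFEB and RRAGD the 2 sets touch.

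GABARAPL1 was the 1 member called in opposite directions by the 2 measures: its introns fell by 0.81 ± 0.22 (adjusted p = 0.0117, edgeR) while its exon counts had a log2 fold change of 0.26 (adjusted p = 0.0437). Intronic counts made up 0.373% to 3.20% of its gene-body counts, 8 to 90 counts per library. Over the 36 genes, 11 had opposite signs over exons and introns, 25 had a lower value in introns than over exons, and the 2 log2 fold changes had a Pearson r of 0.651 across genes, which share the same libraries. The fall in introns with little change over exons was thus seen in CTSA, ATG13 and RRAGD, and values moved together in GLA, WIPI1 and TFEB. MAP1LC3B rose over exons (0.45, adjusted p = 0.00798) with an intronic log2 fold change of 0.00.

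**Figure D5:**
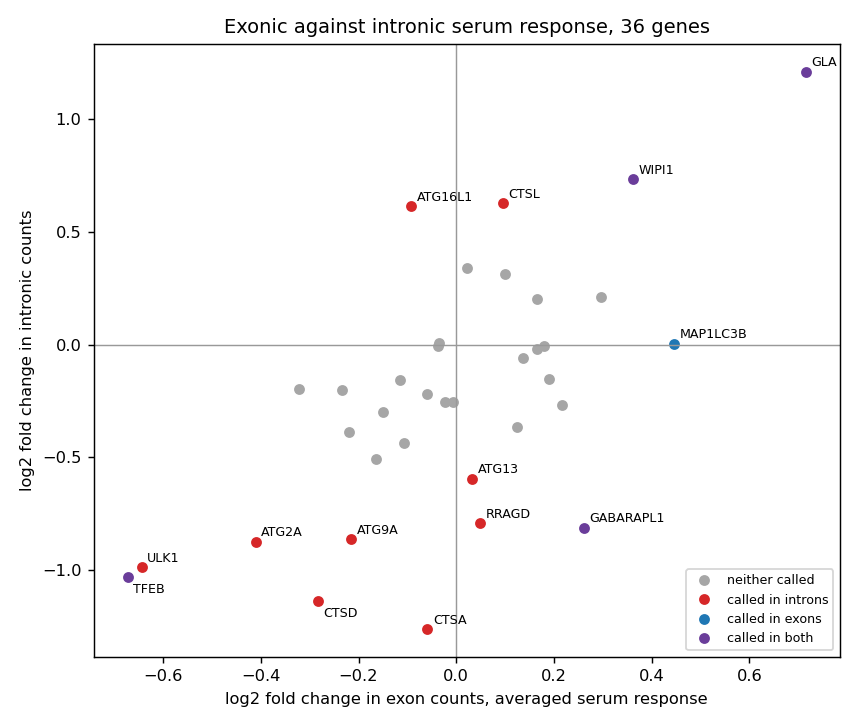
Log2 fold change after serum averaged over siRNAs in exon counts (x axis) and intronic counts (y axis) of the 36 genes with both, coloured by which measure was called at an adjusted p under 0.05. GLA and WIPI1 lie in the upper right, TFEB in the lower left, GABARAPL1 is higher over exons and lower in introns, and MAP1LC3B lies at 0.00 on the intronic axis.

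Of the 37 members, 27 overlap another annotated gene and 17 share exon sequence with one. The counting used no strand, so reads of such partners cannot be told apart. Among the partners are HARBI1 for ATG13, ABCB6 for ATG9A, ARSG for WIPI1, RPL36A-HNRNPH2 for GLA and FBXO31 for MAP1LC3B. AC131009.4 overlaps ULK1 without sharing its exon sequence, AC008695.1 overlaps FNIP1, and 8 genes overlap UVRAG. Long noncoding genes overlap CTSD, GABARAPL1 and TFEB. The number of members called in introns lay between 11 and 16 when any 1 library was left out.

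Responses to serum differed between siPFDN5 and siControl for 4 members in intronic counts, 1 with a positive and 3 with a negative difference. Of all genes 12.5% were called, 3.59% with a positive and 8.95% with a negative difference. The share of members called was near that background, so the count does not set them apart from other genes. FNIP1 and UVRAG moved most. FNIP1, a partner of folliculin, was at 51.4 and 47.4 intronic CPM under siPFDN5 before serum and at 19.03 and 19.12 in the libraries labelled siPFDN5 after it, but at 23.5 and 31.6, then 45.2 and 22.3 in siControl. The difference of its log2 responses was -1.66 ± 0.40 (adjusted p = 0.0318, edgeR). UVRAG went from 79.3 and 63.7 to 22.8 and 27.8 under siPFDN5 and from 34.1 and 46.4 to 66.5 and 32.8 in siControl (-1.80 ± 0.42, adjusted p = 0.0318).

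ATP6V1H, a regulatory subunit of the V-ATPase, went from 43.4 and 35.3 to 23.9 and 24.2 and from 21.3 and 30.5 to 61.2 and 26.6 (-1.47 ± 0.44, adjusted p = 0.0413). For each of these 3, siPFDN5 libraries before serum were above both siControl libraries before serum, and in siControl after serum replicate 1 was about double replicate 2 or more. GLA had the positive difference, 1.35 ± 0.37 (adjusted p = 0.0342). The intronic share of the whole library moved with the 3 lower values: it was 14.995% and 17.3% in siControl before serum and 20.6% and 16.2% after it, beside 22.8% and 25.9%, then 17.2% and 14.8% under siPFDN5, and its part in these results was not tested. Leaving out any 1 of 8 libraries ended all of these calls. Over the 12 fits that left out 1 library, the difference ran from -2.09 to -1.07 for FNIP1 and -2.23 to -1.20 for UVRAG. It ran from -1.955 to -0.746 for ATP6V1H and from 1.01 to 1.795 for GLA. For siPFDN2 no member and 0% of all genes were called in introns by edgeR, and DESeq2 was not run. An unadjusted p under 0.05 (edgeR) was found for 1 of 36 members and for 827 of all 19731 genes.

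A further 4 lists gave the rest of these pathways. Of 49 other lysosomal genes tested in the averaged serum response on gene bodies, 2 rose and 1 fell (median 0.05), where 7.6% of all genes were called higher and 7.31% lower. The 3 lists that follow read against the same shares. NPC1, which exports cholesterol from the lysosome, rose from 61.0 to 76.1 CPM before serum to 98.3 to 105.2 after it, without overlap (0.53 ± 0.07, adjusted p = 8.26e-04, edgeR), and CD63, a membrane protein of late endosomes, also rose (0.27 ± 0.08, adjusted p = 0.0422). CTSK, a cathepsin, fell by 0.59 ± 0.13 (adjusted p = 0.0138) at 0.656 to 1.54 CPM. Of 17 other V-ATPase subunits 2 rose, ATP6V0A4 (0.84 ± 0.18, adjusted p = 0.0121, at 0.180 to 0.775 CPM) and ATP6V1G1 (0.38 ± 0.10, adjusted p = 0.0284), and ATP6V1B1 fell by 1.02 ± 0.17 (adjusted p = 0.00224).

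Of 40 other autophagy genes 5 rose and 1 fell (median 0.02). ATG12, which is joined to ATG5 in the conjugation machinery, went from 40.8 to 89.3 CPM before serum to 102.6 to 146.9 after it (0.79 ± 0.15, adjusted p = 0.00546, edgeR), and VMP1, a lipid scramblase of the endoplasmic reticulum, from 87.9 to 139.4 to 174.7 to 242 (0.79 ± 0.12, adjusted p = 0.00122). Neither gene's sets overlapped. ZFYVE1, the PI3P-binding protein DFCP1, fell by 0.68 ± 0.11 (adjusted p = 0.00177). Of 36 genes of the TFEB family and mTORC1 nutrient sensing 2 rose and 4 fell (median -0.17). RHEB, the GTPase that activates mTORC1, rose (0.63 ± 0.09, adjusted p = 0.00112), as did LAMTOR5 of the lysosomal Ragulator complex (0.47 ± 0.13, adjusted p = 0.0319). DDIT4, an inhibitor of mTORC1, fell by 0.64 ± 0.10 (adjusted p = 0.00163), and CASTOR1, an arginine sensor, by 0.57 ± 0.14 (adjusted p = 0.0216). In introns, 4 of 47 other lysosomal genes were called higher and 16 lower, beside 2 higher and 11 lower of 31 TFEB-family and mTORC1 genes. Of 39 autophagy genes 7 were called each way, and of 16 other V-ATPase subunits 2 were called higher and 1 lower. Of all genes 14.2% were called higher and 15.1% lower.

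LAMP2 has 3 splice forms that differ in their last exon, and LAMP2A is the form that acts as receptor in chaperone-mediated autophagy. In the transcript estimates LAMP2B made up 68.6% to 77.8% of the 3 forms, LAMP2A 18.5% to 25.7% and LAMP2C 3.54% to 5.71%. LAMP2A was at 25.5% and 24.9% in the libraries labelled siPFDN5 after serum and at 23.8% and 21.6% in siPFDN5 before it, beside 18.5% to 20.8% in the 4 siControl libraries and 25.7% in siPFDN2 replicate 2 before serum. The highest share thus lay in the library that stood apart, and no test was made of these shares.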

How the data were processed

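The 12 RNA-seq libraries were grouped from the sample titles and labels into 6 groups of 2. The authors deposited integer counts per gene over gene bodies and over exons, made with featureCounts on Ensembl release 87 without a strand option, fragments that overlap several genes being counted in all of them, per the file headers. The submitters' processing notes name HISAT2 0.12.2, featureCounts 1.5.2, kallisto 0.43 and GRCh38.p7. The authors also deposited a file of estimated counts per transcript for each sample; the tool is not tied to it in the sources used here. Of these values 54.8% to 61.2% were fractional, and gene sums were 1.02 times exon counts (median). They were summed per gene and rounded for 1 alternative. A further 6 columns of each count table match no sample label and were not used.

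Genes kept by filterByExpr (27915 on gene bodies, 24889 on exons, 19731 on introns) were scaled by TMM and fitted in 1 model of 6 group means over 12 libraries (edgeR 4.0.16, limma 3.58.1, R 4.3.3; glmQLFit, quasi-likelihood test, two-sided, Benjamini-Hochberg over all genes tested, called under 0.05). CPM is relative to the TMM-scaled total, the averaged serum response is the mean of the responses under the 3 siRNAs, and SE is the size of the log2 fold change divided by the root of the F statistic. Depth and 2 libraries per group limit the precision, and intronic counts are the least precise. Scripts were tested on simulated data. Alternatives were DESeq2 1.42.0, upper-quartile scaling, library totals only, no filter, exon counts, transcript sums, removal of each library's GC trend (lowess, span 0.3, 3 iterations), a replicate block, only the groups compared, and leaving out each library. Exon counts combined with another choice, and all alternatives of the intronic difference between siPFDN5 and siControl, were added after seeing the data.

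The members and lists were chosen with earlier results of these data known. Values per library were given for members called in any comparison and for TFEB, TFE3, FLCN, LAMP1 and SQSTM1, and in each further list for up to 2 genes with the highest and 2 with the lowest log2 fold change among those called in the averaged serum response. LAMP2, ATP6V0D1 and other members outside this rule were chosen for naming once their values were known. Gene positions, overlaps and GC content came from GENCODE release 29.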

Additional observations from a re-analysis of the deposited data

Results flagged for a closer look

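In intronic counts, 4 members had a serum response under siPFDN5 that differed from that under siControl by the test of the difference itself (edgeR). These were 4 of 36 tested, where 12.5% of all genes were called. The share of members called was near that background, so the count does not set them apart from other genes. The differences of the log2 responses were -1.66 for FNIP1, 1.35 for GLA, -1.47 for ATP6V1H and -1.80 for UVRAG. FNIP1, ATP6V1H and UVRAG were high in both siPFDN5 libraries before serum, in which 22.8% and 25.9% of all counts were intronic. Leaving out any 1 of 8 libraries ended all 4 calls, and PFDN5 was not lowered in the libraries labelled siPFDN5 after serum.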

How the results depend on the processing

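The share of all genes called also moved between alternatives. It is not given beside the counts below, so none of them sets the members apart from other genes. In the averaged response that share was 14.9% in the main fit and 29.2% with the GC trend removed. In siPFDN5 it was 12.2% in the main fit and 4.22% on exons. Numbers of called members moved in these alternatives. In the averaged response they were 13 with the GC trend removed (13 on exons), 12 with a replicate block and the GC trend removed, 8 with library totals, 16 on exons without siPFDN2 replicate 2 before serum, and 4 to 22 leaving out 1 library. In siControl they were 2 with DESeq2 and with only the groups compared, 4 with the GC trend removed (also with the block), and 0 to 5 leaving out 1 library. In siPFDN2 they were 5 with DESeq2 and with the GC trend removed, 1 on exons, transcripts or with the replicate block, 7 with library totals, 9 with no filter, 0 with only the groups compared, and 0 to 27 leaving out 1 library. In siPFDN5 they were 10 with the GC trend removed (also with the block), 1 on exons or transcripts, 24 with only the groups compared, 3 with the replicate block or upper-quartile scaling, and 0 to 17 leaving out 1 library. Against siControl before serum, siPFDN2 had 3 with no filter and 0 to 27 leaving out 1 library, and siPFDN5 had 12 with only the groups compared and 0 to 4. After serum siPFDN5 had 2 with DESeq2, with only the groups compared and with block and GC, 3 with the GC trend removed, 1 with no filter, and 0 to 11. The difference of responses had 2 with no filter and 0 to 24 for siPFDN2. For siPFDN5 it had 2 with DESeq2 and with no filter, 3 with the GC trend removed, 5 with only the groups compared, and 0 to 9. In introns the averaged response had 23 with library totals and 11 to 16, and the siPFDN5 difference 0 to 9. UVRAG under siPFDN5 turned to a log2 fold change of 0.0437 on exons and 0.0865 on transcript sums. Where a library is left out, the lone library is assumed to vary like the others. The labels do not pair the replicates, and correlations of same-numbered deviations ran from -0.322 to 0.592, so the block shows no pairing. The causes were not tested. Low intronic depth limits what CTSA, CTSL, GABARAPL1, RRAGD, ATG2A, TFEB and CTSD can show.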
